A study of Mus musculus with 14 samples.

Results

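The comparison described is that of mouse plantaris muscle after 7 days of overload with plantaris at day 0. It uses the 2 arrays labelled day 7 and the 2 labelled day 0, which are 4 of the 14 arrays of the series. Arrays were chosen by their time point label alone, and every gene that carried a single symbol in the array annotation was tested. The study followed the muscle over days 0, 1, 3, 5, 7, 10 and 14, with 2 arrays a day. One array of each day was hybridised with RNA pooled from the right plantaris of 6 animals and the other with RNA pooled from the left plantaris of 6 animals. All animals were male C57BL/6J mice 5 months of age, with free access to food and water under 14 h of light and 10 h of dark. The day 0 and day 7 groups differed, per the labels, only in the time under overload. No sham-operated group is part of the samples, so the comparison is with muscle of day 0 and not with muscle of the same day without load. The way the load was applied is not given in the sources used here, and it is not stated if both pools of a day were taken from 1 set of animals. P-values therefore measure the spread between a right and a left pool, which may be technical.

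The plantaris is an ankle extensor of the hindlimb made mostly of fast fibres. When the muscles that share its work are lost or weakened it takes over their load and grows. In that growth, satellite cells, the resident stem cells, divide and fuse with fibres or form new ones. Macrophages and fibroblasts enter or multiply and rebuild the connective tissue, and the fibres themselves raise protein synthesis and change the isoforms of their contractile proteins.

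Values are log2 of the deposited intensity, so a difference of 1 is a 2-fold change, and levels are compared within a gene only. A gene was called higher or lower where the adjusted p of limma's moderated test was under 0.05 after Benjamini-Hochberg adjustment over all 19938 genes. Differences are given as day 7 minus day 0 with their standard error (SE), and each day has n = 2 arrays. By this rule 13206 genes (66.2%) differed between day 7 and day 0, of which 5674 (28.5% of all genes) were higher and 7532 (37.8%) lower. Past a 2-fold change, 1930 genes (9.68%) were higher and 1113 (5.58%) lower. The median over all genes was -0.15, and this went to -0.27 when the arrays were set to equal medians. Under that scaling 4832 genes were higher and 10022 lower, so that 32.5% of calls were rises in place of 43.0%. Without the dimmest class of genes the balance turned the other way, with 5380 higher and 4767 lower (53.02% of calls). Small differences of single genes are thus relative to the scaling. With so many genes called, a call in itself says little about a gene group. Counts for every gene list and marker list are to be read against 28.5% higher and 37.8% lower over all genes.

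The arrays of the 2 days did not overlap for 84.4% of genes, with day 7 higher in 33.5% and lower in 50.9%, and the median absolute difference between right and left pool was 0.111 at day 0 and 0.105 at day 7. The skeletal muscle actin Acta1 and the muscle creatine kinase Ckm lay in the brightest of 3 classes of genes by their mean over all arrays. The day 0 pools differed from each other in genes of other tissues. The summed intensity of 16 hepatocyte genes was 21758 in the right and 86489 in the left day 0 pool, against 12730 and 8632 at day 7. The summed intensity of 7 granule genes of neutrophil precursors was 7081 in the right and 3037 in the left day 0 pool, against 1403 and 2267 at day 7. Of the hepatocyte genes 12 of 16 were called lower at day 7. That count was 0 without the left day 0 pool, 0 without the left and 3 without the right day 7 pool, and 15 without the right day 0 pool. The part of these signals in genes outside the marker lists was not tested.

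The largest rises and falls joined genes of several kinds. The 15 largest rises held embryonic myosin (Myh3), collagen and matrix genes (Cthrc1, Tnc, P4ha3, Lox, Plod2, Col12a1, Timp1) and macrophage genes (Ms4a6d, Ms4a7, Ms4a4a, C3ar1). They also held the imprinted gene Mest, the secreted Wnt modulator Sfrp2 and the C1q and TNF related gene C1qtnf3. They ran from 3.81 for Col12a1 to 4.82 for Myh3. The 15 largest falls ran from -3.09 for Inmt to -4.30 for Odf3l2. Myh3, the myosin heavy chain of embryonic muscle, stood at 7.80 and 7.62 in the right and left day 0 pools and at 12.51 and 12.54 at day 7. Both day 7 pools lay far above both day 0 pools, a 28.2-fold difference (4.82 ± 0.21, adjusted p = 1.35e-08).

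**Figure D1:**
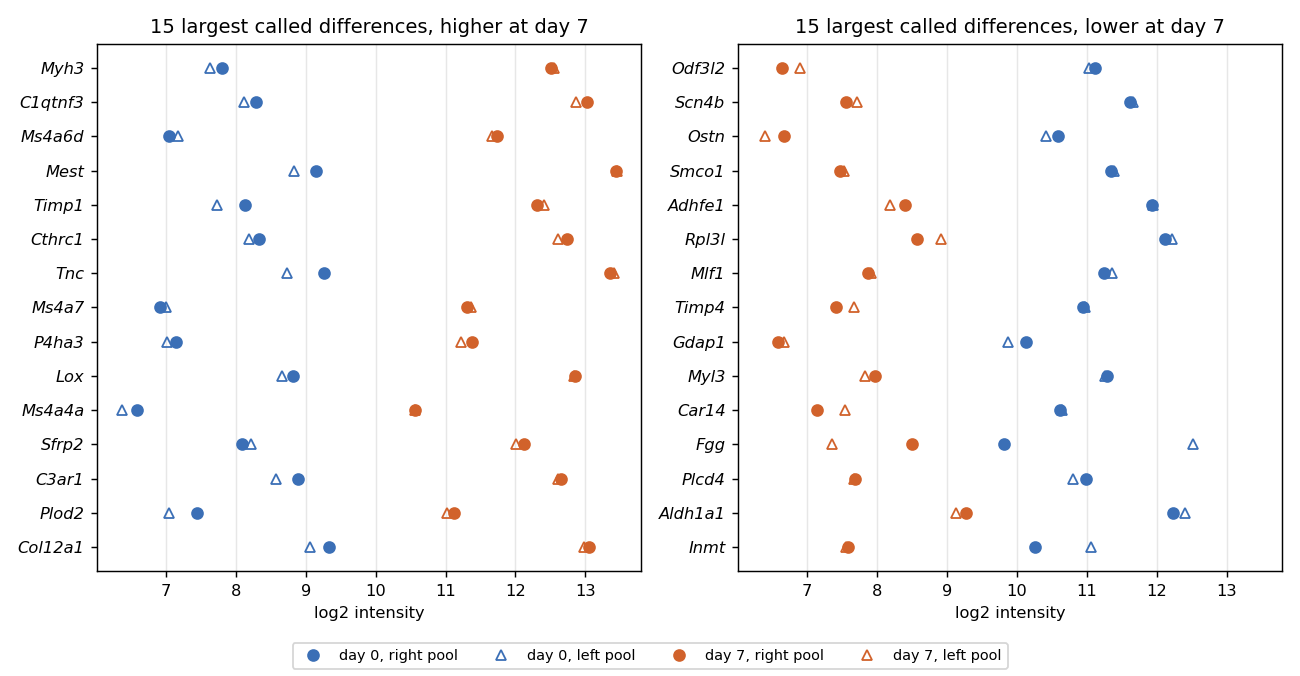
Log2 intensity of the genes with the 15 largest called rises (left panel) and falls (right panel) at day 7, with 1 point for each of the 4 arrays (blue, day 0; orange, day 7; filled circles, right pools; open triangles, left pools). In all 30 genes the 2 day 7 arrays lie on one side of the 2 day 0 arrays, and Fgg is the gene whose pools of a day lie farthest apart.

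Among the falls, the voltage-gated sodium channel subunit Scn4b stood at 11.62 and 11.66 at day 0 and at 7.56 and 7.71 at day 7 (-4.01 ± 0.19). The muscle-secreted peptide osteocrin, Ostn, stood at 10.59 and 10.42 at day 0 and at 6.66 and 6.40 at day 7 (-3.98 ± 0.18). In both genes the pools of a day lay within 0.3 of each other. The other falls were Smco1 (-3.87 ± 0.17), Adhfe1 (-3.65 ± 0.15), Rpl3l (-3.43 ± 0.21), Mlf1 (-3.41 ± 0.19), Timp4 (-3.41 ± 0.15), Gdap1 (-3.38 ± 0.14), Myl3 (-3.37 ± 0.33), Car14 (-3.28 ± 0.17), Plcd4 (-3.22 ± 0.17) and Aldh1a1 (-3.12 ± 0.20). Fgg, the fibrinogen gamma chain made by hepatocytes, is in this group through the left day 0 pool. It stood at 9.82 in the right and 12.52 in the left day 0 pool and at 8.49 and 7.36 at day 7. Its fall of -3.24 ± 1.11 went to -1.89 without the left day 0 pool, and the call was lost (adjusted p = 0.203). Inmt stood at 10.25 and 11.05 at day 0 and at 7.58 and 7.55 at day 7, and kept its call without that pool (-2.69, adjusted p = 0.00913).

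Across 41 gene lists the shares called higher and lower spread over the whole range. Mitosis, collagen, collagen processing and MHC class II genes were called higher in every measured member, while citrate cycle and fatty acid genes were called lower in every measured member. The medians of the lists ran from -1.35 for glycolysis and glycogen genes to 2.65 for mitosis genes. With arrays at equal medians the small positive medians of translation factors (0.12), antioxidant genes (0.10) and the lymphocyte markers (0.03) became negative (-0.01, -0.02 and -0.09).

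**Figure D2:**
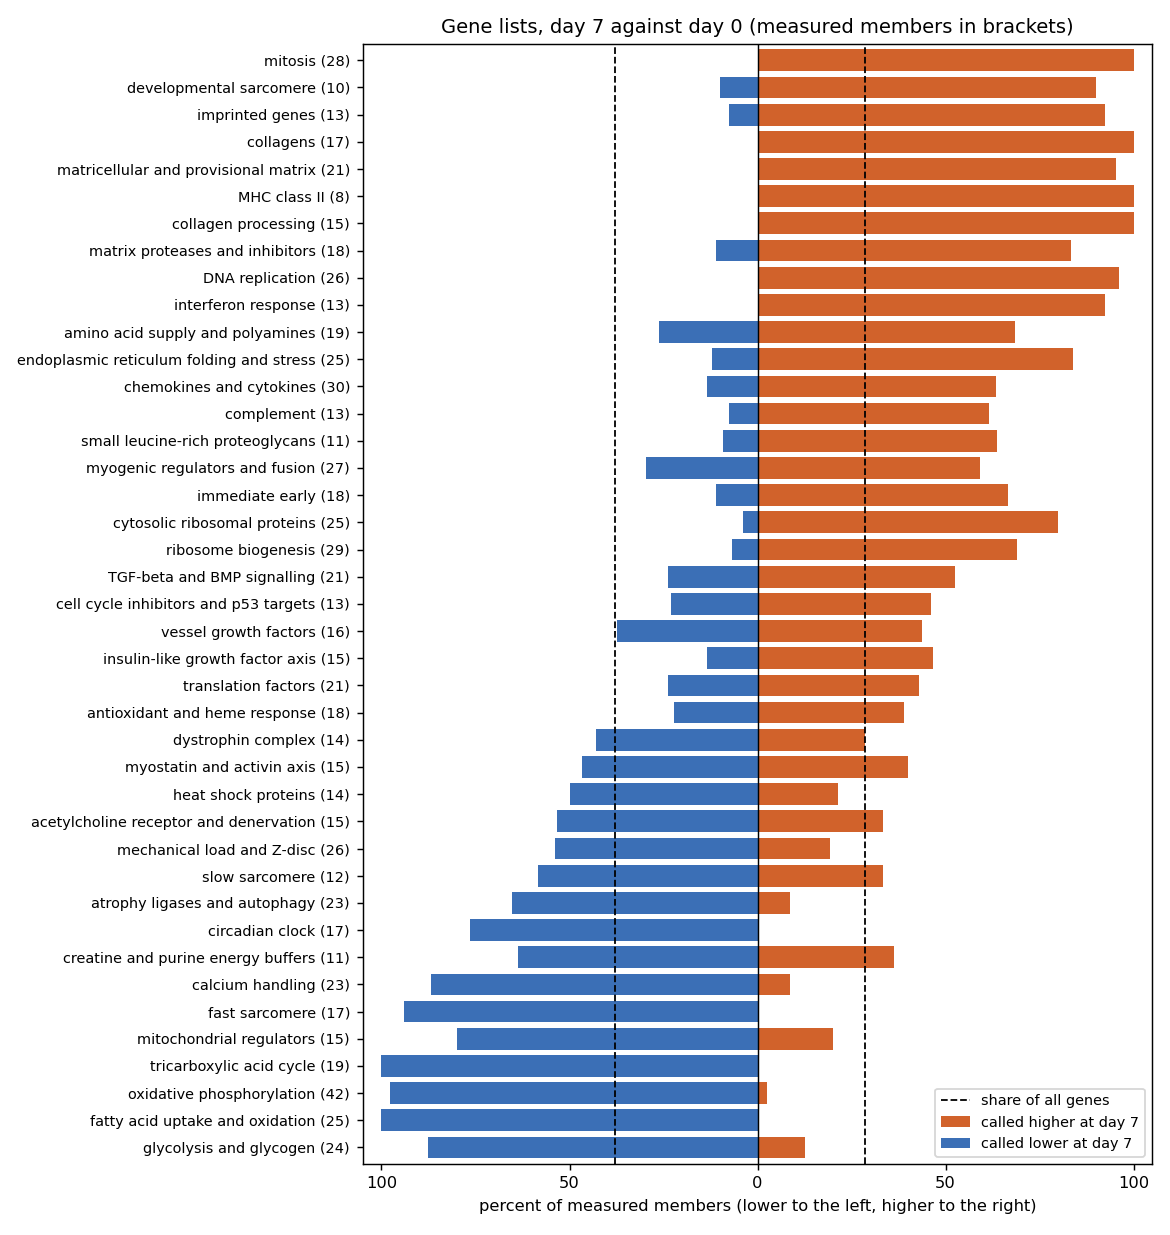
Percent of the measured members of each gene list that were called higher (orange, to the right) or lower (blue, to the left) at day 7 than at day 0, ordered by list median. Dashed lines mark the shares over all genes, 28.5% higher and 37.8% lower.

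The RNA of contractile protein isoforms changed. Of 10 genes of the developmental sarcomere, 9 rose and 1 fell, with a median of 2.45. Of 17 genes of the fast sarcomere, 0 rose and 16 fell, with a median of -1.0. The 12 slow genes went both ways, with 4 rises and 7 falls. In pools of whole muscle, fewer cells of a type and less RNA per cell cannot be told apart.

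Among the developmental genes, cardiac troponin T, Tnnt2, which immature muscle also makes, stood at 9.60 and 9.41 at day 0 and at 12.91 in both pools at day 7 (3.40 ± 0.11). The cardiac actin Actc1 rose by 2.69 ± 0.18, the embryonic light chain Myl4 by 2.68 ± 0.08 and the perinatal heavy chain Myh8 by 2.61 ± 0.20. Nrap, which takes part in myofibril assembly, was the 1 gene of the list that fell (-0.98 ± 0.13). Of the fast heavy chains, Myh1 fell by 0.32 ± 0.11, Myh2 by 0.76 ± 0.15 and Myh4 by 1.0 ± 0.12. The light chain Myl1 was the 1 member not called (-0.23 ± 0.10). Myh4, the heavy chain of type IIb fibres, stood at 13.91 and 13.95 at day 0 and at 12.85 and 13.00 at day 7. The fall of Myh1, the type IIx chain, was small against the spread, and its call was lost under quantile normalization (-0.10, adjusted p = 0.396) and without 3 of the 4 arrays in turn. Larger falls were those of the kinases Mylk4 (-3.07 ± 0.18) and Mylk2 (-2.54 ± 0.14), of the fast myosin binding protein Mybpc2 (-1.82 ± 0.15) and of the Z-disc protein Myoz1 (-1.57 ± 0.13).

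In the slow sarcomere, thin filament genes rose while myosin light chains fell. Slow troponin I, Tnni1, stood at 9.40 and 9.47 at day 0 and at 12.16 and 12.23 at day 7 (2.76 ± 0.25). Slow troponin C, Tnnc1, rose by 2.19 ± 0.32, slow troponin T, Tnnt1, by 1.61 ± 0.23 and the slow tropomyosin Tpm3 by 1.5 ± 0.08, though another probe set of Tpm3 was called lower. The ventricular and slow light chain Myl3 stood at 11.29 and 11.26 at day 0 and at 7.98 and 7.83 at day 7, a 10.4-fold fall. Its partner Myl2 stood at 10.98 and 10.96 at day 0 and at 8.49 and 8.55 at day 7 (-2.45 ± 0.35). The slow heavy chain Myh7 stood at 9.89 and 9.78 at day 0 and at 9.20 and 8.84 at day 7. Its difference of -0.82 ± 0.42 was not called (adjusted p = 0.107), though it was called under quantile normalization (-1.02, adjusted p = 0.0466) and in a fit of the 4 arrays alone (adjusted p = 0.00361).

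Calcium handling genes, which couple the nerve's signal to contraction, fell as a group: 20 of 23 fell and 2 rose, with a median of -0.93. The largest falls were those of myoregulin, Mrln (-2.17 ± 0.10), a peptide that inhibits the calcium pump, of the junctophilins Jph1 (-1.81 ± 0.13) and Jph2 (-1.66 ± 0.09) and of the calcium binding protein Hrc (-1.5 ± 0.12). The pump of fast fibres, Atp2a1, fell by 0.61 ± 0.08 while that of slow fibres, Atp2a2, rose by 1.05 ± 0.09. The pump inhibitors did not move together. Sarcolipin, Sln, stood at 6.83 and 7.04 at day 0 and at 8.02 and 8.05 at day 7 (1.10 ± 0.17), and phospholamban, Pln, fell by 1.39 ± 0.13. Asph was the 1 member not called (0.10 ± 0.07).

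Genes of the Z-disc and of load sensing divided. Of 26, 5 rose and 14 fell, with a median of -0.29. Ankrd1, a titin-linked repressor known for its response to stretch, stood at 9.20 and 8.89 at day 0 and at 12.02 and 12.10 at day 7, an 8.08-fold rise (3.01 ± 0.13). The other rises were small, as in Csrp3, the muscle LIM protein (0.52 ± 0.11), Pdlim1 (0.48 ± 0.08) and Mustn1 (0.45 ± 0.08). Tcap, the titin cap protein, fell by 2.44 ± 0.15, Fhl3 by 1.75 ± 0.09 and Ldb3 by 1.08 ± 0.10. In the dystrophin complex 4 of 14 rose and 6 fell. Utrophin, Utrn, the relative of dystrophin found in immature muscle, rose by 0.78 ± 0.07, whereas dystrophin itself, Dmd, fell by 0.85 ± 0.13 and the neuronal nitric oxide synthase Nos1 by 2.54 ± 0.10.

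Of 27 myogenic regulators and fusion genes 16 rose and 8 fell, with a median of 0.58. Myomaker, Mymk, the membrane protein that lets myoblasts fuse, stood at 8.61 in both pools at day 0 and at 12.37 and 12.23 at day 7, a 12.9-fold rise. Myogenin, Myog, the factor that starts terminal differentiation, stood at 7.67 and 7.60 at day 0 and at 10.73 and 10.57 at day 7 (3.02 ± 0.17). The adhesion molecule Ncam1 rose by 2.91 ± 0.11 and Megf10, of satellite cells, by 1.68 ± 0.12. The satellite cell factor Pax7 rose less, by 0.63 ± 0.09, while its relative Pax3 fell by 0.54 ± 0.10. The largest falls in the list were those of Eya1 (-1.68 ± 0.10) and Six4 (-0.73 ± 0.12), which act together in fast fibre genes. Mef2a, Des and Sdc4 were not called.

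The fetal and adult subunits of the acetylcholine receptor moved in opposite directions. The receptor of adult muscle holds the epsilon subunit, Chrne, in place of the fetal gamma subunit, Chrng. Chrng stood at 8.02 and 7.98 at day 0 and at 11.004 and 10.760 at day 7, a 7.37-fold rise (2.88 ± 0.20). Chrne went the other way, from 10.39 and 10.33 to 8.89 and 9.0 (-1.41 ± 0.11). The shared subunits Chrna1 (2.39 ± 0.10), Chrnd (2.31 ± 0.14) and Chrnb1 (0.71 ± 0.09) rose, and so did Runx1 (3.30 ± 0.10), a factor that denervated muscle makes. Dach2, also known from denervation, fell by 1.60 ± 0.11. In the whole list of 15 genes 5 rose and 8 fell, with a median of -0.23, and the 5 rises are those named. Without the right day 0 pool 5 fell. The 2 members not called were Hdac9 (-0.11 ± 0.09) and Dok7 (-0.21 ± 0.09).

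The promoter of Chrng is shown because the E-box, CAGCTG, a sequence that myogenic factors bind, occurs in it at 2 places. The window runs from 250 bases before to 50 bases after the start of the gene (chr1:87205561-87205860, plus strand, GRCm38.p6, sequence from RefSeq), and capitals mark the E-boxes.
Chrng: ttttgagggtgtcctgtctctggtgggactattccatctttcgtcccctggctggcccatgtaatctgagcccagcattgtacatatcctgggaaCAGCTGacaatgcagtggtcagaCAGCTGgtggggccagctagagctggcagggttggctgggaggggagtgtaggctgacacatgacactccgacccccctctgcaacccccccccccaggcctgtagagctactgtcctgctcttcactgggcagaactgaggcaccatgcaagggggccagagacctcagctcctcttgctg
Of the 11 genes of this list with a window, 5 (45.5%) held CAGCTG, against 15.9% of the windows of all 15563 genes that had one. The share was 40.0% in the developmental and 36.4% in the fast sarcomere list, so it is not particular to this list. It was 7.7% in the list of myogenic regulators and fusion, and 9.5% to 15.4% in the other lists searched. The letters are their own reverse complement, so 1 search covers both strands. A match describes the letters and not the binding of a factor.

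In the myostatin and activin axis 6 of 15 genes rose and 7 fell, with a median of -0.10. Myostatin, Mstn, the secreted inhibitor of muscle growth, stood at 11.39 and 11.25 at day 0 and at 8.18 and 8.39 at day 7, an 8.21-fold fall (-3.04 ± 0.19). Its receptor Acvr2b fell by 1.0 ± 0.12 and its antagonist Wfikkn2 by 1.36 ± 0.08. The antagonist follistatin, Fst (0.48 ± 0.09), rose, and so did Fstl1 (2.53 ± 0.08) and Inhba (1.14 ± 0.13), which encodes the activin A subunit. The 2 members not called were Gdf11 (-0.02 ± 0.09) and Acvr2a (-0.10 ± 0.07).

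Of 15 genes of the insulin-like growth factor axis 7 rose and 2 fell. Its list median of 0.12 became -0.0019 with arrays at equal medians, where 6 members were lower. Igf2 stood at 9.93 and 9.89 at day 0 and at 12.67 and 12.74 at day 7 (2.79 ± 0.09). Igf1 stood at 9.80 and 10.39 at day 0 and at 11.72 and 11.63 at day 7 (1.58 ± 0.22), with day 0 pools that lay farther apart than those of day 7. The binding proteins Igfbp3 (1.97 ± 0.12) and Igfbp4 (1.51 ± 0.16) rose, and the insulin receptor Insr (-0.96 ± 0.09) and its substrate Irs2 (-0.92 ± 0.08) fell.

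Atrophy genes fell in 15 of 23 members and rose in 2, with a median of -0.57. Fbxo32, the ubiquitin ligase atrogin-1, stood at 12.34 and 12.33 at day 0 and at 10.45 and 10.44 at day 7 (-1.89 ± 0.08). The ligase MuRF1, Trim63, fell by 1.27 ± 0.09, and the falls of Asb15 (-2.86 ± 0.17), Ddit4l (-2.35 ± 0.11), Asb2 (-2.10 ± 0.09) and Fbxo31 (-2.04 ± 0.07) were larger. The 2 rises, in Nedd4 (0.30 ± 0.06) and Cblb (0.26 ± 0.07), were small. Clock genes fell in 13 of 17 members and rose in 0, with Nr1d1, the repressor Rev-erb alpha, at -1.60 ± 0.08, Hlf at -1.46 ± 0.08, Rora at -1.11 ± 0.10 and Bhlhe41 at -1.07 ± 0.09. The hour at which muscles were taken is not given in the labels, and the part of the hour in these values was not tested.

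Imprinted genes rose nearly throughout. These genes are expressed from 1 parental copy, are active in the fetus and fall silent after birth in many tissues. Of 13 measured, 12 rose and 1 fell, with a median of 2.40. Mest stood at 9.14 and 8.83 at day 0 and at 13.44 and 13.45 at day 7, a 21.9-fold rise. Plagl1, a zinc finger factor that regulates other imprinted genes, rose by 3.52 ± 0.10, Peg3 by 3.12 ± 0.12 and the long noncoding RNA Meg3 by 3.02 ± 0.10. Nnat was the 1 gene that fell (-0.60 ± 0.18), and its call was lost without the right pool of either day. H19 is not analysed here.

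The imprinted region between Dlk1 and Dio3 on mouse chromosome 12 also holds a dense group of microRNA genes, which are cut from long maternal transcripts that include Meg3 and Rian. The group was chosen for description after its values had been seen, so its counts are a description with no test of the group. Of 58 hairpins listed there in RefSeq, 39 had a probe set with a single symbol. At day 7, 33 of the 39 were higher than at day 0, 0 were lower and 6 were not called, with a median of 1.15. Of the other 257 microRNA genes on the array 39 were higher and 73 lower, with a median of -0.15. Over all genes the shares were 28.5% higher and 37.8% lower. A rise past 2-fold was seen in 25 of the 39 and in 6 of the 257.

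The mature sequences of the 3 hairpins that rose most and of 2 pairs that share a seed are shown, with the seed, bases 2 to 8, in capitals. The seed is the part of a microRNA that pairs with its targets. All are written 5′ to 3′ from RefSeq, and miR-206, a muscle microRNA from chromosome 1, is added for comparison.
miR-382-5p: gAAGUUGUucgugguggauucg
miR-377-3p: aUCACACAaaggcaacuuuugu
miR-323-3p: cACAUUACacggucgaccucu
miR-379-3p: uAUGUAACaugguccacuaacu
miR-411-3p: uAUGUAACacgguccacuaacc
miR-376b-5p: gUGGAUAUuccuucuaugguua
miR-376c-5p: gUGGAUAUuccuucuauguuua
miR-206-3p: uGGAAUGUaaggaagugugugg
Mature miR-382-5p lies at chr12:109733781-109733802 and miR-377-3p at chr12:109740553-109740574, on the plus strand of GRCm38.p6. The 3p arms of miR-379 and miR-411 share the seed AUGUAAC, and the 5p arms of miR-376b and miR-376c share UGGAUAU.

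Mir382 stood at 5.91 and 6.06 at day 0 and at 9.39 in both pools at day 7, a 10.6-fold rise (3.40 ± 0.12). Mir377 stood at 5.15 and 5.28 at day 0 and at 8.58 and 8.47 at day 7, a 9.91-fold rise. Mir323 rose by 3.21 ± 0.21. In all 3 the day 7 pools lay above the day 0 pools by far more than the pools of a day differed. Of the pairs that share a seed, Mir379 rose by 2.81 ± 0.15 and Mir411 by 2.14 ± 0.19, Mir376b by 2.42 ± 0.12 and Mir376c by 1.04 ± 0.14. The 6 hairpins not called were Mir673 (0.09), Mir540 (0.00), Mir431 (0.13), Mir299a (0.03), Mir667 (0.20) and Mir409 (0.09). Meg3 stood at 8.99 and 8.84 at day 0 and at 11.92 and 11.95 at day 7, and Rian, which hosts other hairpins, at 6.62 and 6.18 and then at 8.88 and 8.50. The probe sets read RNA that holds the hairpin, which includes the long precursor, and do not measure the mature microRNA. Of the 39 probe sets 22 lay in the dimmest of 3 classes, and of the 17 others 12 were higher and 0 lower.

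**Figure D3:**
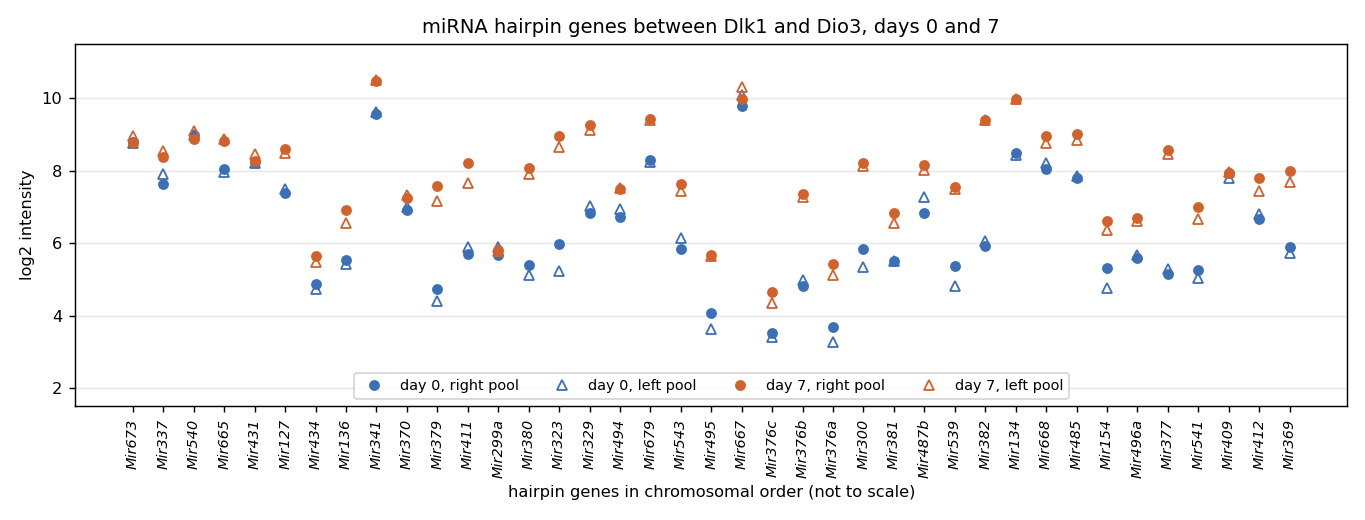
Log2 intensity of the 39 measured hairpin genes between Dlk1 and Dio3, in chromosomal order and not to scale, with 1 point for each of the 4 arrays (blue, day 0; orange, day 7; filled circles, right pools; open triangles, left pools). The orange points lie above the blue ones in most genes. In the 6 genes that were not called all 4 points lie close together, with both day 7 points above both day 0 points in Mir431 and Mir409.

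Mir206, whose host RNA is made in differentiating and regenerating muscle, stood at 5.06 and 4.41 at day 0 and at 7.70 and 7.85 at day 7 (3.04 ± 0.17). Its relative Mir1a-1, a microRNA of mature muscle, stood at 7.65 and 7.43 at day 0 and at 7.20 and 7.13 at day 7 and was not called (-0.37 ± 0.18, adjusted p = 0.081).

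Genes of the extracellular matrix rose together. All 17 collagen genes rose, with a median of 2.23, and so did all 15 measured genes of collagen processing (1.95) and 20 of 21 matricellular genes (2.11). Col1a1, the alpha 1 chain of type I collagen, stood at 10.90 and 10.73 at day 0 and at 13.83 and 13.85 at day 7, an 8.15-fold rise (3.03 ± 0.09). Col12a1, which links fibrils, rose by 3.81 ± 0.10, Col8a1 by 3.12 ± 0.09 and Col3a1 by 2.86 ± 0.08. The smallest rise was that of Col16a1 (0.55 ± 0.07). Of the enzymes that modify collagen, the prolyl hydroxylase P4ha3 rose by 4.23 ± 0.09, the crosslinking enzyme Lox by 4.10 ± 0.08 and the lysyl hydroxylase Plod2 by 3.83 ± 0.11. Their relatives rose less, as P4ha1 (0.68 ± 0.08) and Plod1 (1.16 ± 0.07) show.

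Tenascin C, Tnc, a glycoprotein of developing and healing matrix, stood at 9.25 and 8.73 at day 0 and at 13.35 and 13.40 at day 7 (4.39 ± 0.15). Periostin, Postn, rose by 3.58 ± 0.17, thrombospondin 2, Thbs2, by 3.48 ± 0.11 and versican, Vcan, by 2.90 ± 0.11. Elastin, Eln, was the 1 matricellular gene not called (0.09 ± 0.10). Small leucine-rich proteoglycans rose in 7 of 11 members, led by Aspn (2.59 ± 0.07) and Bgn (1.90 ± 0.06), while decorin, Dcn, stood at -0.02 ± 0.07. Of the 18 matrix proteases and inhibitors 15 rose and 2 fell. The inhibitors of metalloproteinases parted ways: Timp1 rose 21.7-fold, from 8.12 and 7.72 to 12.31 and 12.41, and Timp4 fell 10.6-fold, from 10.94 and 10.97 to 7.42 and 7.67. Timp2 rose by 1.19 ± 0.06 and Timp3 fell by 0.62 ± 0.10. Among the proteases, collagenase 3, Mmp13, rose by 3.68 ± 0.26, Adam12 by 3.28 ± 0.09 and the membrane-bound Mmp14 by 3.03 ± 0.08. In TGF-beta and BMP signalling 11 of 21 rose and 5 fell, with Tgfbi at 2.07 ± 0.09, Ltbp2 at 1.92 ± 0.12 and the ligand Tgfb1 at 1.70 ± 0.09, and with Bmp6 at -1.2 ± 0.08.

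Macrophage genes rose, whereas calls of mature neutrophil genes were few and shifted when single pools were left out. Of 26 macrophage genes 22 rose and 1 fell, with a median of 2.46, and their summed intensity went from 11277 and 10392 at day 0 to 63373 and 61532 at day 7. Ms4a7 stood at 6.91 and 6.99 at day 0 and at 11.31 and 11.36 at day 7 (4.39 ± 0.07). Ms4a6d rose by 4.60 ± 0.09, Ms4a4a by 4.09 ± 0.10, Gpnmb by 3.61 ± 0.17 and Cd68 by 3.26 ± 0.08. Marco, a scavenger receptor, fell by 0.71 ± 0.11. Cd163 (0.08 ± 0.13), Nos2 (-0.08 ± 0.14) and Lyve1 (-0.28 ± 0.12) were not called. Mature neutrophil genes rose in 1 of 8 members and fell in 3, beside 28.5% and 37.8% of all genes. The rise was that of Csf3r (1.30 ± 0.22), and Lcn2 (-1.80 ± 0.37) was among the falls. Under limma's robust prior 1 of the 8 neutrophil genes fell. The day 0 values of these genes differed between pools, with a median of 0.69 higher in the right one, and the part of that difference in the falls was not tested. The count of 3 became 1 without the right day 0 pool, 5 without the left day 0 pool and 1 without the right day 7 pool.

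All 8 genes of MHC class II presentation rose (median 2.05), led by cathepsin S, Ctss (3.37 ± 0.09), and H2-Ab1 (2.28 ± 0.08), and 12 of 13 interferon response genes rose (median 1.13), led by Ifit1 (1.71 ± 0.16) and Ifit3 (1.57 ± 0.17). Irf1 was among the genes that rose, though another of its probe sets was called lower. Rsad2 was not called (0.05 ± 0.13). Of 30 chemokines and cytokines 19 rose and 4 fell. Ccl8 rose by 3.69 ± 0.14 and Ccl3 by 3.22 ± 0.15. Ccl2, which draws monocytes, stood at 7.84 and 7.51 at day 0 and at 10.68 and 10.75 at day 7 (3.04 ± 0.12). The eosinophil attractant Ccl11 fell by 1.82 ± 0.12. In the complement list 8 of 13 rose and 1 fell, with the receptor C3ar1 at 3.90 ± 0.09 and C1qb at 2.99 ± 0.10, and C7 at -2.32 ± 0.17. Lymphocyte genes rose in 6 of 16 and fell in 4, beside 28.5% and 37.8% of all genes. Of these 16 members 9 lay in the dimmest class. Without that class 3 rose and 1 fell, and without the right day 7 pool 1 fell.

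Cell division genes rose nearly throughout. All 28 mitosis genes were higher at day 7, with a median of 2.65, and 27 of them past 2-fold. Of 26 DNA replication genes 25 rose, with a median of 1.24. Bub1, a kinase of the spindle checkpoint, stood at 6.68 and 6.41 at day 0 and at 10.14 and 9.76 at day 7, a 10.6-fold rise (3.41 ± 0.22). Cyclin A2, Ccna2, rose by 3.29 ± 0.29, Top2a by 3.11 ± 0.28 and Kif11 by 3.02 ± 0.35. Mki67, a marker of dividing cells, stood at 9.0 in the right and 7.77 in the left day 0 pool and at 11.30 and 11.10 at day 7 (2.81 ± 0.38). The right day 0 pool was the higher one in the list as a whole, by a median of 0.45, and it was also the pool with more neutrophil precursor signal; the part of that signal was not tested. Without the left day 0 pool, 27 of 28 were still called higher. Of the replication genes, the reductase subunit Rrm2 rose by 2.60 ± 0.24, Mcm6 by 2.29 ± 0.17 and Tyms by 2.04 ± 0.10. Rfc4 was not called (0.20 ± 0.13). Of 13 cell cycle inhibitors and p53 targets 6 rose and 3 fell, and none of them passed 2-fold. Without the left day 0 pool 3 rose.

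The promoters of cyclin B2, Ccnb2, and of the kinase Plk1 are shown as examples of short sequences that many genes of the mitosis list hold near their starts. The windows are chr9:70421505-70421804 on the minus strand and chr7:122159185-122159484 on the plus strand of GRCm38.p6, from RefSeq, and capitals mark the cell cycle homology region, TTTGAA, and the CCAAT box, CCAAT, both searched on both strands.
Ccnb2: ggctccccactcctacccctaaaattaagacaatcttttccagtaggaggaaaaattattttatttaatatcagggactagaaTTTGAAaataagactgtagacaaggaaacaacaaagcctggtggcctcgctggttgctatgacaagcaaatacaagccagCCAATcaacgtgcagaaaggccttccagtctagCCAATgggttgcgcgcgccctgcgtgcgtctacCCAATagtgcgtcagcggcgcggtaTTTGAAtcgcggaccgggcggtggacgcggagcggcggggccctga
Plk1: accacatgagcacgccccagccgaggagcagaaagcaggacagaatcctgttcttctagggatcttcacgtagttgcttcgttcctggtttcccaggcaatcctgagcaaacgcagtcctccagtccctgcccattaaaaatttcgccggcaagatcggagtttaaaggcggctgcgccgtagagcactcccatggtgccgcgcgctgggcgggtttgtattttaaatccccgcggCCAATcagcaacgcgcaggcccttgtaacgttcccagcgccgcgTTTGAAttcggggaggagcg
Ccnb2 stood at 9.58 and 8.56 at day 0 and at 11.96 and 11.79 at day 7, and Plk1 at 7.89 and 7.39 and then at 10.68 and 10.57. Of the 24 mitosis genes with a window 19 (79.2%) held TTTGAA, 20 (83.3%) CCAAT and 18 (75.0%) both. The shares over all 15563 windows were 15.2%, 38.3% and 6.1%. In the 1501 windows of genes that rose past 2-fold at day 7 they were 15.6%, 38.8% and 7.9%, and in the 21 windows of the replication list 14.3%, 61.9% and 9.5%. In all, 7 motifs were searched in 9 lists, and the others searched were the NRF1 site, the ERR site and its core AAGGTCA, and TATAAA. The NRF1 site was in 25.0% of the 32 windows of oxidative phosphorylation genes and in 7.3% of all. Here too a match describes the letters and not the binding of a factor, and a link of the motifs to the rise was not tested.

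Ribosome biogenesis factors rose in 20 of 29 members and fell in 2 (median 0.37), with 17 rises and 5 falls when arrays were set to equal medians. Without the left pool of either day 1 fell. The nucleolar protein Npm1 rose by 1.28 ± 0.10 and Nop58 by 1.16 ± 0.12. Of 25 cytosolic ribosomal protein genes 20 rose and 1 fell (median 0.38), and 14 rose with arrays at equal medians. The 1 that fell, Rpl3l, is a muscle-specific relative of Rpl3. It stood at 12.13 and 12.22 at day 0 and at 8.58 and 8.92 at day 7, a 10.7-fold fall, against a range of -0.10 to 1.10 in the other 24. Translation factors rose in 9 of 21 and fell in 5. The elongation factor of most cells, Eef1a1, rose by 1.31 ± 0.07, while that of mature muscle and nerve, Eef1a2, fell by 1.49 ± 0.12.

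Genes of the endoplasmic reticulum, where secreted proteins fold, rose in 21 of 25 members and fell in 3 (median 0.72). Pdia3 rose by 1.74 ± 0.08 and Pdia4 by 1.65 ± 0.11, while the stress-induced Herpud1 (-0.84 ± 0.06), Atf4 (-0.50 ± 0.07) and Ddit3 (-0.44 ± 0.11) fell. Of 19 genes of amino acid supply and polyamines 13 rose and 5 fell, and 3 fell without the right pool of either day. The transporter Slc38a1 stood at 7.57 and 7.25 at day 0 and at 10.20 and 10.12 at day 7 (2.75 ± 0.13), and the serine synthesis enzyme Psat1 rose by 2.35 ± 0.12. The polyamine oxidase Smox fell by 2.05 ± 0.10. Immediate early genes rose in 12 of 18 and fell in 2 (in 1 without the right day 0 pool or without either day 7 pool), led by Myc, which stood at 8.20 and 8.14 at day 0 and at 10.51 and 10.42 at day 7 (2.29 ± 0.09). Heat shock genes rose in 3 of 14 and fell in 7, with Hsp90aa1 at 1.2 ± 0.11 and Dnajb5 at -1.21 ± 0.08. In the antioxidant list 7 of 18 rose and 4 fell (median 0.10), and 7 fell with arrays at equal medians. Heme oxygenase, Hmox1, rose by 3.36 ± 0.09, and superoxide dismutase 2, Sod2, of mitochondria, fell by 1.42 ± 0.08.

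Genes of energy metabolism fell in most members of the 5 lists tested. Of 42 oxidative phosphorylation genes 41 fell and 1 rose, with a median of -1.15. All 19 citrate cycle genes fell (-1.12), all 25 genes of fatty acid uptake and oxidation fell (-1.34), and 21 of 24 genes of glycolysis and glycogen fell (-1.35). Cox7a1, the muscle isoform of a cytochrome oxidase subunit, stood at 13.34 and 13.35 at day 0 and at 10.79 and 11.03 at day 7, a 5.39-fold fall. The other muscle isoforms of the enzyme, Cox8b (-1.94 ± 0.15) and Cox6a2 (-1.66 ± 0.11), were the next largest falls. The 1 gene of the list that rose, Cox6a1 (0.88 ± 0.12), is the isoform that most other tissues use in place of Cox6a2. In the fatty acid list Acacb fell by 2.12 ± 0.12, Ucp3 by 1.90 ± 0.12 and Acadm by 1.87 ± 0.09.

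Phkg1, the catalytic subunit of muscle phosphorylase kinase, stood at 12.19 and 12.17 at day 0 and at 9.07 and 9.19 at day 7, an 8.25-fold fall. The insulin-regulated glucose transporter Slc2a4 fell by 2.76 ± 0.18, Gpd1 by 2.70 ± 0.19 and Ldhb by 2.65 ± 0.20. The 3 rises were Pfkp (1.49 ± 0.14), Slc2a1 (0.60 ± 0.08) and Hk1 (0.32 ± 0.10), isoforms that many tissues share. Of 11 genes of creatine and purine energy buffers 4 rose and 7 fell (median -0.90). Creatine kinases moved by isoform: the mitochondrial muscle form Ckmt2 fell by 2.96 ± 0.19 and the brain form Ckb rose by 1.34 ± 0.15. Among the regulators of mitochondria 12 of 15 fell and 3 rose. Ppargc1a, the coactivator PGC-1 alpha, stood at 11.24 and 11.16 at day 0 and at 8.91 and 8.90 at day 7 (-2.30 ± 0.17), Ppara fell by 2.35 ± 0.20 and Esrrg by 1.61 ± 0.11, while Pprc1, a coactivator related to PGC-1 alpha, rose by 0.73 ± 0.13.

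Progenitor genes of the fibroblast and adipocyte lineage rose in 9 of 14 members and fell in 2 (median 0.75; 1 fell without the right day 0 pool or without either day 7 pool), with Thy1 at 2.19 ± 0.10 and Fap at 1.68 ± 0.12. Tenocyte genes rose in 6 of 10 and fell in 2, with Cilp at 2.48 ± 0.12, the tendon glycoprotein tenomodulin, Tnmd, at 2.12 ± 0.17 and Chad at -1.77 ± 0.25. Endothelial genes rose in 12 of 18 and fell in 3 (median 0.29), and 8 rose with arrays at equal medians. The largest of the 12 rises was 1.02. The receptors Flt1 (-0.94 ± 0.09) and Kdr (-0.62 ± 0.09) for vascular endothelial growth factor were 2 of the 3 members that fell. Their ligand Vegfa stood at 11.97 and 11.99 at day 0 and at 10.13 and 10.17 at day 7, a 3.57-fold fall, and Vegfb fell by 1.64 ± 0.08. In the whole list of 16 vessel growth factors 7 rose and 6 fell. The rises included Apln (2.03 ± 0.12), Hif1a (1.92 ± 0.09) and Angptl4 (1.70 ± 0.14). Adipocyte genes fell in 9 of 11 and rose in 0 (median -0.70), and 5 fell without the right day 7 pool. Smooth muscle genes rose in 6 of 10 and fell in 4, and myelin genes rose in 2 of 9 and fell in 5. Over all genes 28.5% rose and 37.8% fell.

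Day 7 stood close to day 5. A total of 230 genes (1.15%) differed between these days, with 133 higher (0.667%) and 97 lower (0.487%) at day 7. Past 2-fold, 8 (0.0401%) were higher and 7 (0.0351%) lower. The count rested on single arrays: it was 21 without the right and 60 without the left day 7 pool, and 29 without the right and 327 without the left day 5 pool. Of the 1930 genes past 2-fold higher at day 7 than at day 0, 95 were higher and 15 lower than at day 5. In those genes the mean of day 7 was the highest of all 7 days in 970 (50.3%), and of the 1113 past 2-fold lower it was the lowest of all in 770 (69.2%). Both sets were chosen on their day 7 values, which favours day 7 as the extreme day, so these shares are a description.

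**Figure D4:**
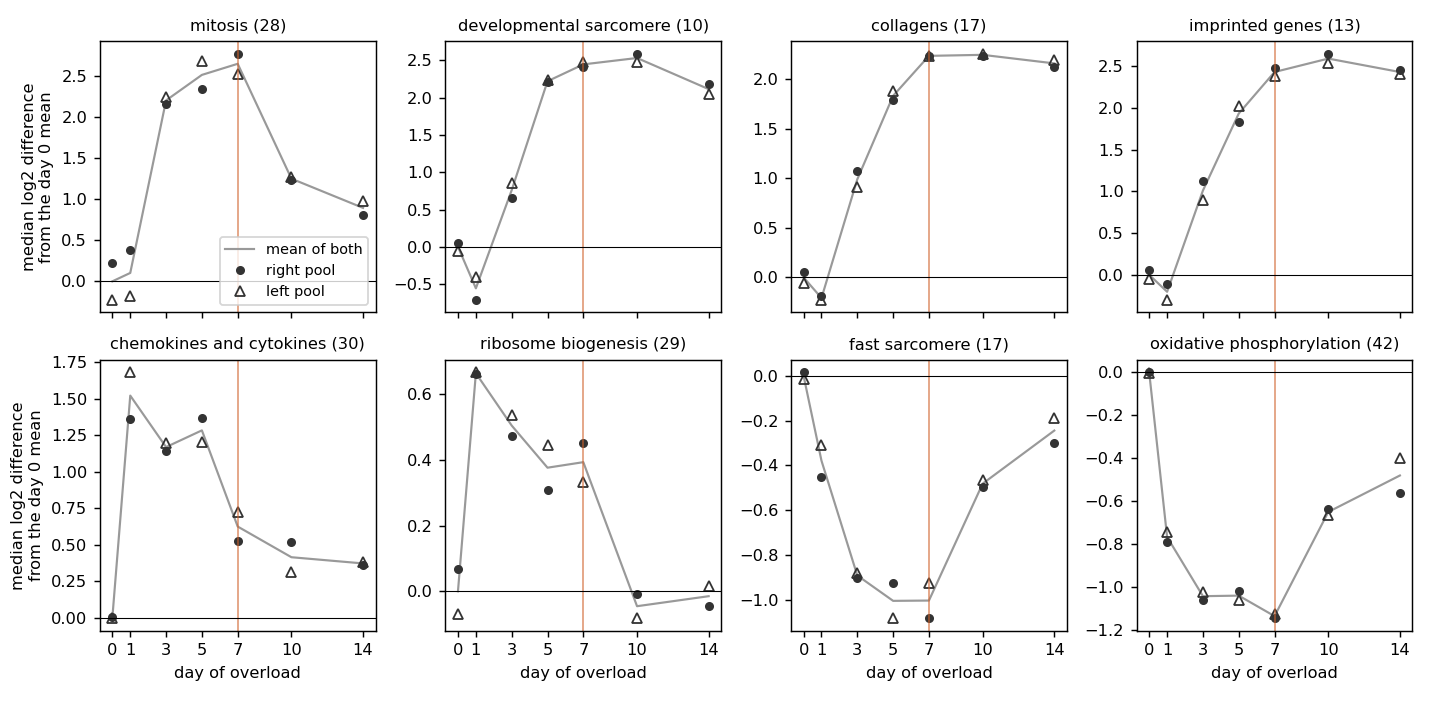
Median log2 difference from the day 0 mean for 8 gene lists (measured members in brackets) against the day of overload, with 1 point for each array (filled circles, right pools; open triangles, left pools), a line through the mean of both, and day 7 marked in orange. Mitosis medians were at 2.65 at day 7 and lower at day 10. The collagen and imprinted medians were 2.23 and 2.40 at day 7 and 2.24 and 2.59 at day 10.

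Genes higher at day 7 than at day 5 included those of tendon, matrix and imprinted loci. The largest differences were in the protease Prss35 (1.5 ± 0.17), the kinase Nrk (1.5 ± 0.16), Tnmd (1.42 ± 0.17), the growth factor pleiotrophin, Ptn (1.37 ± 0.12), Edil3 (1.10 ± 0.13), the angiotensin receptor Agtr2 (1.01 ± 0.10) and the collagen-binding integrin Itga11 (0.98 ± 0.12). Tnmd stood at 10.23 and 9.88 at day 5 and at 11.444 and 11.496 at day 7. Dlk1, the imprinted gene at the edge of the microRNA group, stood at 9.59 and 9.46 at day 5 and at 10.60 and 10.61 at day 7 (1.08 ± 0.11). Of 13 imprinted genes 6 were higher than at day 5 and 0 lower, of 17 collagen genes 6 were higher and 0 lower, and of the 39 hairpin genes 16 were higher and 0 lower. The collagens were Col12a1 (0.74), Col11a1 (0.69), Col6a3 (0.45), Col6a2 (0.42), Col6a1 (0.40) and Col5a2 (0.38).

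Genes lower at day 7 than at day 5 included chemokines and genes of the Z-disc and load list. Of 30 chemokines and cytokines 6 were lower and 0 higher, with Cxcl5 at -1.10 ± 0.16, Cxcl14 at -1.0 ± 0.13, Ccl6 at -0.86 and Ccl2 at -0.83. Of 26 genes of the Z-disc and load list 5 were lower: Csrp3 (-0.77), Hspb1 (-0.73), Ankrd2 (-0.71), Fhl3 (-0.45) and Cryab (-0.37). Csrp3 stood at 12.90 and 12.73 at day 5 and at 11.97 and 12.13 at day 7. The largest falls from day 5 were those of Sprr1a (-1.18 ± 0.22), a small proline-rich protein, of Ppbp (-1.16 ± 0.24) and of Alas2 (-1.14 ± 0.16), which makes heme in red cells. Without the right day 7 pool the calls of Sprr1a (adjusted p = 0.312), Ppbp (adjusted p = 0.304) and Alas2 (adjusted p = 0.122) were lost. Without the right day 5 pool they were lost as well.

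Between day 7 and day 10 many more genes differed. At day 10, 1385 genes (6.95%) were higher and 1899 (9.52%) lower than at day 7, 3284 (16.5%) in all. Past 2-fold, 53 (0.266%) were higher and 122 (0.612%) lower. This count was 965 without the right day 7 pool, 1290 without the right and 1478 without the left day 10 pool, and 2762 without the left day 7 pool. Of the 1930 genes past 2-fold higher at day 7, 903 were lower at day 10 than at day 7 and 63 higher. Of the 1113 past 2-fold lower, 568 were higher at day 10 and 1 lower. Both sets were chosen on day 7 values, which enter this difference too, so these counts are a description.

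All 28 mitosis genes were lower at day 10 than at day 7, with a median of -1.29, and 24 of 26 replication genes were lower (-0.78). Bub1 stood at 8.27 and 8.16 at day 10, between its day 0 and its day 7 values. Ribosome biogenesis factors were lower in 19 of 29 members (-0.41) and macrophage genes in 15 of 26 (-0.43), while 0 of either list were higher. The largest single differences were in arginase, Arg1 (-2.16 ± 0.43), the prostaglandin synthase Ptgs2 (-1.79 ± 0.11), Bub1 (-1.74 ± 0.22), Hmmr (-1.72 ± 0.21), the neuropeptide galanin, Gal (-1.72 ± 0.18), Hmox1 (-1.66 ± 0.09), Ccl2 (-1.61 ± 0.12) and Ppbp (-1.55 ± 0.24). Ptgs2 stood at 10.69 and 10.63 at day 7 and at 8.95 and 8.80 at day 10.

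Many sarcomere and mitochondrial genes were higher at day 10 than at day 7. Of 17 fast sarcomere genes 14 were higher and 0 lower (median 0.50), of 42 oxidative phosphorylation genes 35 were higher and 0 lower (0.40), and of 26 Z-disc genes, of which 14 had fallen and 5 had risen by day 7, 20 were higher and 0 lower (0.37). Myl2 stood at 8.49 and 8.55 at day 7 and at 10.07 in both pools at day 10 (1.55 ± 0.35). Rpl3l stood at 10.37 and 10.20 at day 10 (1.54 ± 0.21), still below its day 0 values of 12.13 and 12.22. Ckmt2 (1.41 ± 0.19), Slc2a4 (1.38 ± 0.18), Mlf1 (1.33 ± 0.19) and Cox7a1 (1.33 ± 0.15) were also higher, with Retnla (1.52 ± 0.25) and the cartilage and tendon protein Chad (1.5 ± 0.25). Fatty acid genes were higher in 8 of 25 members and lower in 0. Of 13 imprinted genes 4 were higher and 0 lower (0.06), and of the 39 hairpin genes 11 were higher and 0 lower (0.28). The matrix lists differed in this step. Of 17 collagen genes 1 was higher at day 10 and 0 lower (median 0.01), of 15 genes of collagen processing 0 were higher and 6 lower (-0.18), and of 21 matricellular genes 3 were higher and 8 lower (-0.24). Of 11 small leucine-rich proteoglycans 6 were higher and 0 lower (0.33), and of 18 proteases and inhibitors 5 were higher and 5 lower (0.015).

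**Figure D5:**
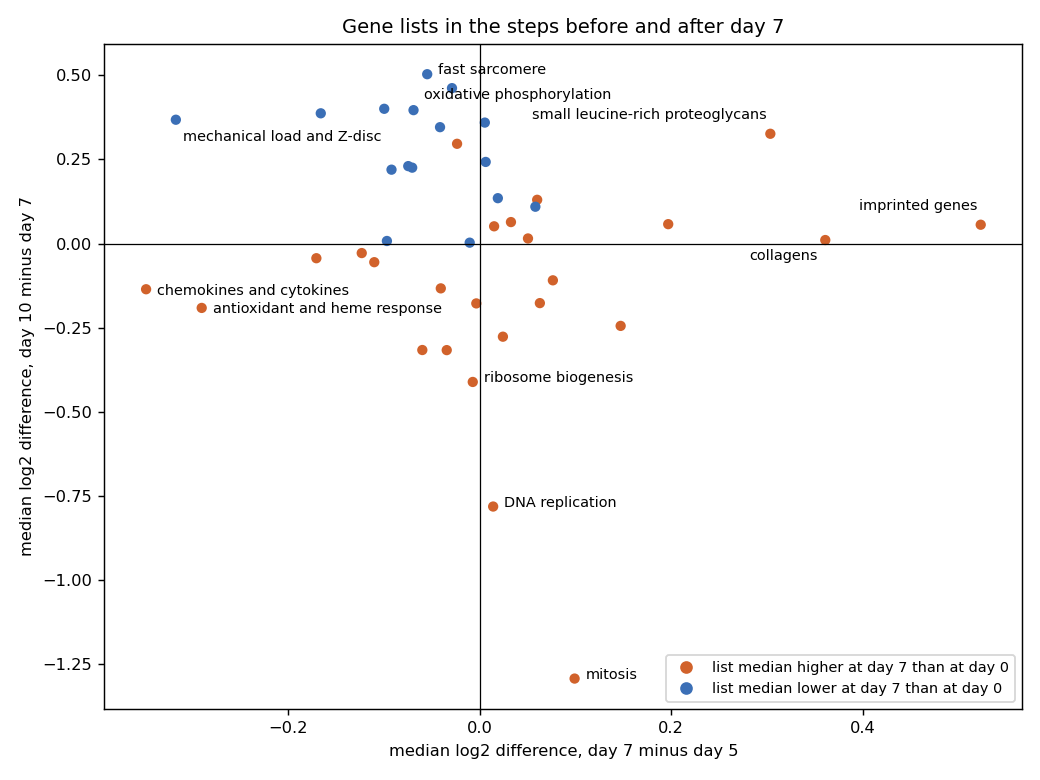
Median log2 difference of each of the 41 gene lists between day 7 and day 5 (horizontal axis) and between day 10 and day 7 (vertical axis), coloured by whether the list median was higher (orange) or lower (blue) at day 7 than at day 0. Mitosis and DNA replication lie lowest, at -1.29 and -0.78 for the later step, and imprinted genes and collagens lie to the right, at 0.52 and 0.36 for the earlier step.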

How the data were processed

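The study hybridised 14 pools of plantaris RNA to Affymetrix Mouse Gene 1.0 ST arrays, per the labels. The deposited values are normalized intensities on a linear scale, made by the authors with Partek per the submitters' processing notes. The version, background correction and normalization are not given in the sources used here. The series text names 100 ng and the labelling protocol 250 ng of RNA. Depth has no meaning for arrays, and their number limits the precision.

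From these, log2 of the deposited intensity was computed. Of 35556 probe sets, 21789 carried 1 gene symbol in the platform annotation, 1621 several and 12146 were not listed or had no symbol. The brightest probe set stood for each of 19938 genes, and in 36 genes probe sets were called in opposite directions. limma 3.58.1 (R 4.3.3) was fitted to all 14 arrays with 1 mean per day, and p-values were adjusted by Benjamini-Hochberg. Brightness classes are 3 equal classes by the mean over all arrays. Python 3.11.15, pandas 2.3.3 and matplotlib 3.10.9 were used for lists and plots.

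The comparison, the 41 gene lists and the 13 marker lists were chosen with earlier results of these data known. The text names the 15 largest called changes each way with arrays that did not overlap (8 each way for the other days, without predicted genes, small RNAs, odorant, pheromone and antigen receptors or genes of the Y chromosome), up to 4 called members of a list each way with members not called where these were 5 or fewer, and a fixed panel. The pattern that left out predicted genes first dropped C1qtnf3, P4ha3 and C3ar1 in error and was corrected after values were seen. Other genes are named as the remaining isoforms or partners of those. These, and the hairpin genes, were chosen after their values were seen.

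Tested on simulated data for day 7 against day 0 over 19938 genes, 66% of the genes changed 1.5-fold were recovered. The share was 94% for changes of 2-fold, 96% for 4-fold and 100% for 8-fold, and 5 genes were called wrongly. In the simulation 50 genes were changed at each fold, and noise was drawn for each gene on its own. In the data 66.2% of genes were called and the day 0 pools differed in whole groups of genes. The simulated shares may therefore not carry over to the data. Alternatives changed the scaling, dim genes, probe sets, prior, arrays fitted, threshold and side. Right and left were not treated as pairs in the main fit. Deviations of the right pools from their day means correlated at -0.062 between day 7 and day 0. Over the 21 pairs of days these correlations ran from -0.583 to 0.438, and 9 exceeded 0.1. They compare different days, so they cannot show if both pools of a day came from 1 set of animals.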

Additional observations from a re-analysis of the deposited data

Results flagged for a closer look

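Differences between successive days were tested as contrasts within the fit across all arrays. Between day 5 and day 7, 230 genes differed by limma with Benjamini-Hochberg adjustment. The largest rise was that of Prss35 (1.5 ± 0.17), from 7.79 and 8.18 at day 5 to 9.62 and 9.36 at day 7, and the largest fall that of Sprr1a (-1.18 ± 0.22). Between day 7 and day 10, 3284 genes differed. The largest rise was that of Myl2 (1.55 ± 0.35), and the largest fall that of Arg1 (-2.16 ± 0.43), from 9.19 and 9.60 at day 7 to 7.04 and 7.41 at day 10. The 2 pools of each day did not overlap between the days in these 4 genes.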

How the results depend on the processing

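With 2 arrays a day, leaving 1 out assumes that the lone array varies like those of other days. Leave-one-out counts for day 7 against day 0 were 9881 to 12309 (4830 to 5510 higher, 5051 to 6799 lower). For day 7 against day 5 they were 21 to 327 (14 to 153 higher, 7 to 174 lower), lowest without the right day 7 pool. For day 10 against day 7 they were 965 to 2762 (484 to 1102 higher, 481 to 1660 lower), also lowest without the right day 7 pool. Leaving out the dimmest class, which tests fewer genes, gave 5380 genes higher and 4767 lower than at day 0, so that 53.02% of calls were rises in place of 43.0%, and 363 different from day 5, 164 of them lower. A trended prior gave 383 against day 5 (216 higher, 167 lower), and a fit of the 4 arrays compared gave 93 (60 and 33). Past 2-fold as well, 3043 genes (1930 and 1113) differed from day 0, 15 (8 and 7) from day 5 and 175 (53 and 122) between days 7 and 10. With limma's treat test against 1.5-fold, 3557 (2312 and 1245) differed from day 0, 3 (0 higher, 3 lower) between days 7 and 10 and 0 from day 5 (0 higher, 0 lower), where 43 genes had an unadjusted p under 0.05. The cause of these shifts was not tested beyond what each setting changes. With side as a replicate block, the counts were 12932, 173 and 2978, each within 1.5 times those without the block; the calls of single genes could still differ, as for Sprr1a (adjusted p = 0.0528). No gene of the fixed panel or of the largest changes changed direction under the alternatives run. Of 1286 values of these genes under alternatives, 1205 kept their side of the threshold, 79 lost their call and 2 gained one. Other named genes were not followed singly, and small differences among them could change sign with the scaling. Hairpin counts were 32 to 34 higher of 39 and 0 lower, but 26 against 1.5-fold and 12 of 17 without the dimmest class; this check was added after seeing the data.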
